A study of Mus musculus with 6 samples.

Results

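The genes described are 58 G2 and mitosis genes, listed by symbol, that act between the end of DNA replication and the separation of the daughter cells. A named gene entered if it reached at least 1 CPM (reads scaled to a common library total of 1000000) in 3 or more libraries. All 58 did, so they are 58 of the 10590 genes that passed this filter and of the 25655 genes listed in the deposited tables. The rule used these names and this minimum level, not the difference between the genotypes. The names themselves were chosen with earlier results of these data known.

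RNA was measured in splenic CD8 T cells of C57BL/6 female mice that were either wild type (WT) or knockout for Utx (Utx KO), with 3 biological replicates of each. Utx, also called Kdm6a, is a histone demethylase that removes methyl groups from lysine 27 of histone H3. Naive cells, selected with a CD8 kit and an antibody to CD44, received anti-TCR-β at 3 µg/ml and anti-CD28 at 1 µg/ml, both bound to the plate, together with IL-2 at 10 ng/ml. This stimulation lasted 2 days, IL-2 alone followed for 3 days, and all 6 cultures were taken on day 5. Both genotypes went through the same culture, so they differ in the labels only by Utx. Not given in the sources used here were the age of the mice, a Cre driver if there was one, and the deleted part of Utx. The labels do not say whether replicates are separate animals, so every p-value measures the spread among these samples, which may be partly technical.

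Entry into mitosis is driven by the kinase Cdk1 bound to cyclin A or cyclin B. Plk1 and the Aurora kinases then build the spindle and the kinetochores, the protein plates on which chromosomes attach to microtubules. A checkpoint formed by Bub1, Bub1b, Bub3 and Mad2l1 holds back the anaphase-promoting complex until all chromosomes are attached, after which Cdc20 switches that complex on and securin (Pttg1) and the cyclins are destroyed. Transcripts of these genes build up in G2 and are low in resting cells, and activated CD8 T cells are among the fastest dividing cells of the body.

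Many promoters of this class hold a short element called CHR, with the core TTTGAA, near the start site, often with CCAAT boxes at which NF-Y binds. RefSeq promoter windows (assembly GRCm38.p6, 250 bases before to 50 bases after the start site) existed for 49 of the 58 members, in 52 promoters. Both strands were searched for TTTGAA, for the CHR variants TTTAAA (a palindrome, like the next) and also TTCGAA, and then for CCAAT; none of the 4 contains another. TTTGAA was in 39 of the 52 member promoters (75%), against 12.1% of the 10745 promoters of tested genes and 17.9% of all 32851 RefSeq promoters of that length. CCAAT was in 76.9% of member promoters, against 38.2% and 37.4%. The windows that held both made up 67.3% of member promoters, against 4.92% of the promoters of tested genes and 6.95% of all. In the 60 promoters of a list of S-phase genes, TTTGAA was in 10%, CCAAT in 55% and both in 6.67%. TTTAAA was in 19.2% of member promoters (8.94% of tested and 13.2% of all) and TTCGAA in 7.69% (2.2% and 1.56%). A match of letters is a description and does not show that a factor binds.

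The promoters below are those of the 5 members whose transcripts passed the test between the genotypes, with Cdk1 and Ccnb2 as members of the same class that did not pass. Each line is the 150 bases before the start site, 5′ to 3′ on the gene's strand, with CHR-type hexamers and CCAAT boxes in capitals. TTCAAA is the CHR core on the other strand, and in the same way ATTGG is a CCAAT box.
Plk1: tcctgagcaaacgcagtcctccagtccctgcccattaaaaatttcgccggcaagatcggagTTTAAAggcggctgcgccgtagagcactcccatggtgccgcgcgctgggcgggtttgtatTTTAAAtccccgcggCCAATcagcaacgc
Cdc20: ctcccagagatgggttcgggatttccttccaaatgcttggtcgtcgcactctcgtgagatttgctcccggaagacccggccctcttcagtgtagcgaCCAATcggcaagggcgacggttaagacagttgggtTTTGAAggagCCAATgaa
Bub1: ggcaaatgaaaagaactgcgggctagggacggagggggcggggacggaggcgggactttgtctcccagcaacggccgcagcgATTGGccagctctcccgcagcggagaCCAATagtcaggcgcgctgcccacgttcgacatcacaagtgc
Cenpe: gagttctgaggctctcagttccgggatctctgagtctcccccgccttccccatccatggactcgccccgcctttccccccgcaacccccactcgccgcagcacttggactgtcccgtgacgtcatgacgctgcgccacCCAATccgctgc
Smc2: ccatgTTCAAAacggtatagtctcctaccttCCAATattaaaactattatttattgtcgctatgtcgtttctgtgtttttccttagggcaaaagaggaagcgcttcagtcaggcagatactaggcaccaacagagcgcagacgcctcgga
Cdk1: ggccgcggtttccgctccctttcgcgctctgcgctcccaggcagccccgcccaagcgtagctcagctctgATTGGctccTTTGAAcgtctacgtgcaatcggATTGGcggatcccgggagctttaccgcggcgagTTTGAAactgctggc
Ccnb2: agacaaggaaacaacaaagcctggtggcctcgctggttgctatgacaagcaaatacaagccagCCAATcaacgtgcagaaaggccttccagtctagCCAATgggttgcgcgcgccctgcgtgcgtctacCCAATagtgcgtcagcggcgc

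These windows lie at chr7:122159285-122159434 (plus strand) for Plk1, chr4:118437344-118437493 (minus) for Cdc20, chr2:127831860-127832009 (minus) for Bub1, chr3:135212413-135212562 (plus) for Cenpe, chr4:52439071-52439220 (plus) for Smc2, chr10:69352913-69353062 (minus) for Cdk1 and chr9:70421555-70421704 (minus) for Ccnb2. Cdc20, which was higher in Utx KO, has TTTGAA beginning 18 bases before the start and CCAAT boxes at 53 and 8 bases before it. Cdk1 has TTTGAA at 71 and at 15 bases before the start. Plk1, the other member that was higher, has TTTAAA at 89 and 29 bases before the start, and its TTTGAA lies 31 bases after it, outside the printed stretch. Ccnb2 has TTTGAA at base 5 after the start and at 167 bases before it, both outside the printed stretch. Of the 3 members that were lower, Bub1 and Cenpe have no TTTGAA in the whole window: Bub1 has TTCGAA and Cenpe has TTTAAA, each at 15 bases after the start. Smc2 has TTTGAA on the other strand, at 145 bases before and 27 bases after the start.

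The libraries held 1619085 to 2529113 reads over the listed genes, recovered from the steps of the deposited CPM values, and the 3 reads that a count of 0 cannot exclude came to 1.19 to 1.85 CPM. Utx itself (Kdm6a) measured 44.3, 49.3 and 53.6 CPM across the 3 WT libraries against 27.8, 39.4 and 31.5 CPM across the 3 Utx KO libraries, a log2 fold change of -0.57 (SE 0.15, 95% interval -0.88 to -0.27, limma adjusted p = 0.0123). That call was lost with DESeq2 (adjusted p = 0.0985) and without WT library 2 (0.0528), WT library 3 (0.0708) or Utx KO library 1 (0.0554). A 3′ tag outside the deleted part says nothing on the deletion. Of 9 markers of CD8 T cells, 6 were tested, and their summed level was 1773 to 1859 CPM (WT) against 2064 to 2104 CPM (Utx KO). Cd3d, Cd3e and Cd8b1 were called higher, and Cd3g, Cd8a and Lck were not called. Trac, Trbc1 and Trbc2 are listed at 0 in all 6 libraries. Cd4 is at 0 in all 6 libraries. B cell markers summed to 2.76 to 5.47 CPM (WT) against 0.571 to 1.85 CPM (Utx KO), nearly all of it Cd79b. Cd79a, Ms4a1, Pax5 and Ighm were at 0 throughout. As Trac, Trbc1 and Trbc2 were also at 0 in T cells, a 0 for Cd4 or Ighm does not show that CD4 T cells or B cells were absent. Macrophage markers summed to 6.72 to 8.29 CPM (WT) against 7.55 to 12.4 CPM (Utx KO), from Cd68 and Csf1r alone. Lyz2, Adgre1, C1qa and Cd14 were at 0 throughout. Mitochondrial transcripts took 2.07% to 2.51% of reads in WT and 1.53% to 1.83% in Utx KO, and ribosomal protein genes 14.9% to 15.1% and 16.1% to 16.7%. The part of these levels and shares in the results was not tested.

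Utx KO library 1 stood apart from the other libraries of its group by transcript length. The difference of each gene in that library from the mean of Utx KO libraries 2 and 3, on the log2(CPM + 1) scale, was followed over the 4676 genes with a mean of at least 30 CPM. With the genes divided into 5 equal classes by the length of their longest coding transcript, its median from the shortest to the longest class was 0.08, 0.05, 0.01, -0.03 and -0.15, with a Spearman coefficient of -0.40 across genes. Genes share the libraries and are not independent replicates, so this is a description. Over the 58 members the coefficient was -0.45, and 39 members were lower in that library than the mean of libraries 2 and 3. Utx KO libraries 2 and 3, each set against the rest of its group, gave 0.23 and 0.21 over all 4676 genes. Over the members they gave 0.45 and 0.13, so there library 2 was as far from 0 as library 1. Library 1 is part of the mean in both comparisons. WT library 1, treated in the same way, gave 0.12 over all 4676 genes and -0.07 over the members.

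The members furthest down in Utx KO library 1 were Cenpf (-0.56, longest coding transcript 11130 nt), Espl1 (-0.55, 6658 nt), Kif4 (-0.40, 4983 nt), Mki67 (-0.39, 10061 nt), Ndc80 (-0.33, 2201 nt) and Cenpe (-0.28, 7910 nt). Top2a was at -0.23 and Smc2 at -0.11. Values without that library are given below for Cenpe, Cenpf, Espl1, Mki67, Smc2, Top2a, Kif20b and Mad2l1, and what set it apart was not tested. The fold changes of Kif4 and Ndc80 below include it. Kif4 had 84.6, 70.5 and 76.6 CPM (WT) against 65.9, 93.7 and 81.5 CPM (Utx KO). Ndc80 had 93.3, 104 and 76.1 CPM (WT) against 85.8, 114 and 103 CPM (Utx KO).

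The difference between the genotypes also fell with transcript length. Over the same classes, from the shortest to the longest, the median log2 fold change, Utx KO over WT, was 0.04, 0.01, -0.02, -0.03 and -0.06, with a Spearman coefficient of -0.16 across the 4676 genes and -0.40 across the 58 members. Without Utx KO library 1, a setting added after the data were seen, the class medians were 0.02, -0.0047, -0.02, -0.02 and -0.0030, and the coefficients were -0.03 and -0.17. The 5 members that passed the test between the genotypes were ordered the same way: those that were higher, Cdc20 (1793 nt) and Plk1 (2199 nt), have shorter transcripts than those that were lower, Bub1 (3421 nt), Smc2 (5404 nt) and Cenpe (7910 nt). Without that library, Plk1 (0.38, adjusted p = 0.000201), Cdc20 (0.39, 0.00473), Bub1 (-0.39, 0.0294) and Smc2 (-0.19, 0.0189) still passed, and Cenpe (-0.14, 0.136) did not. The part of length in these differences was not tested further.

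**Figure D1:**
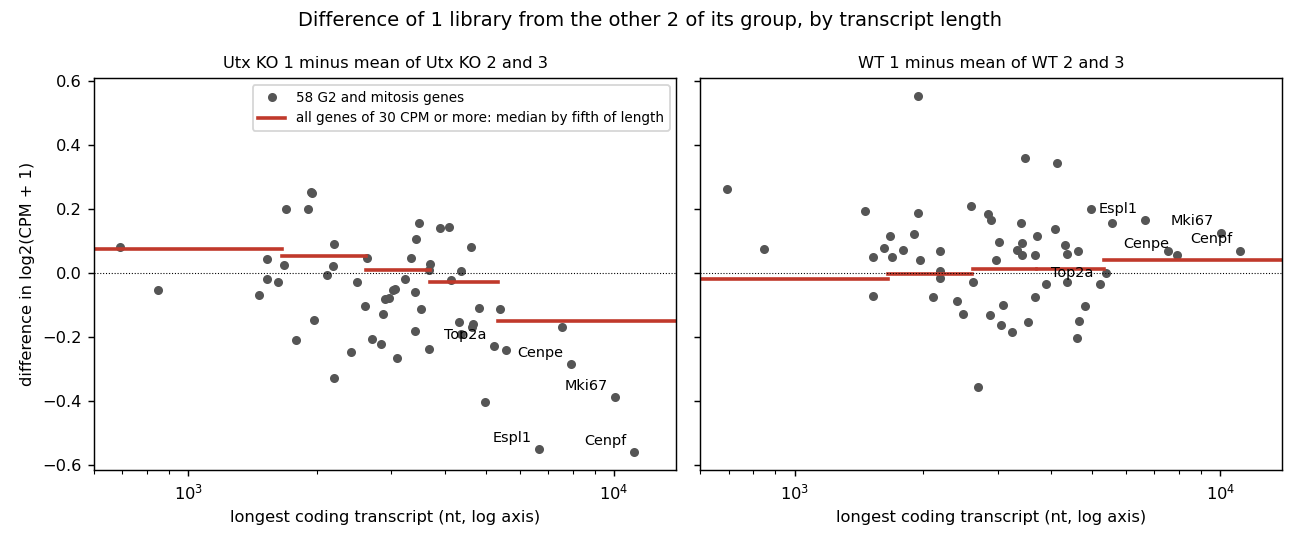
Difference of replicate 1 from the mean of the other replicates of its group, in log2(CPM + 1), against the length of the longest coding transcript in nucleotides on a log axis, for Utx KO (left) and WT (right). Grey points are the 58 G2 and mitosis genes and red lines are medians over 5 length classes of all genes with a mean of at least 30 CPM: in Utx KO the lines descend from 0.08 to -0.15, and Cenpf and Espl1 lie lowest.

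Of the 58 G2 and mitosis genes, 5 differed between the genotypes, and the median difference over the list was close to 0. Plk1 and Cdc20 were higher in Utx KO, and Bub1, Cenpe and Smc2 were lower. These calls used limma on log2(CPM + 1), two-sided, with p-values adjusted over all 10590 tested genes and a threshold of 0.05. The share of members called was 8.62%, and the background was 10.8% of tested genes called in either direction. Members called higher were 3.45% of the list, against 5.28% of all tested genes, and members called lower were 5.17%, against 5.51%. The members' share is therefore near or below the background and is no result about the list. Among genes with a mean of at least 100 CPM, where small differences are easier to call, 4 of 36 members (11.1%) and 23.0% of 1832 tested genes were called. RNA of a cell mixture was measured, so fewer cells in G2 or mitosis and less RNA per such cell cannot be told apart.

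The spread of the members' differences was narrow. Their median log2 fold change, Utx KO over WT, was 0.02, with quartiles of -0.08 and 0.09 and a range from -0.35 to 0.42, and the median over all tested genes was 0.01. The median size of the difference, without its sign, was 0.09 over the members, 0.19 over all tested genes and 0.11 over tested genes of at least 100 CPM. There were 34 members above 0 and 24 below it. The 95% interval lay within a change of 1.25-fold in either direction for 34 members and within 1.5-fold for 56; the exceptions were Cdc25c, with the lowest mean level of the list at 8.68 CPM, and Pttg1. A p that misses the threshold does not show that a gene is at the same level. Exons of other genes overlap 4 members on the same strand (Ccnf, Top2a, Ncapd2 and Foxm1) and 14 on the opposite strand, Ccna2 and Ube2c among them, and reads there may be shared.

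In 7 members every Utx KO library was above every WT library (12.1% of the members, against 14.0% of all tested genes), and in 4 every one was below (6.90%, against 12.6%). The 7 were Plk1, Cdc20, Pttg1, Ube2c, Ccna2, Ccnb1 and Cenpa, and the 4 were Bub1, Cenpe, Smc2 and Cdk1. The levels of all members summed to 16804, 16712 and 16505 CPM in WT and to 15808, 16918 and 17333 CPM in Utx KO, that is 1.58% to 1.73% of reads. The lowest and the 2 highest sums were all in Utx KO, so the groups overlapped.

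**Figure D2:**
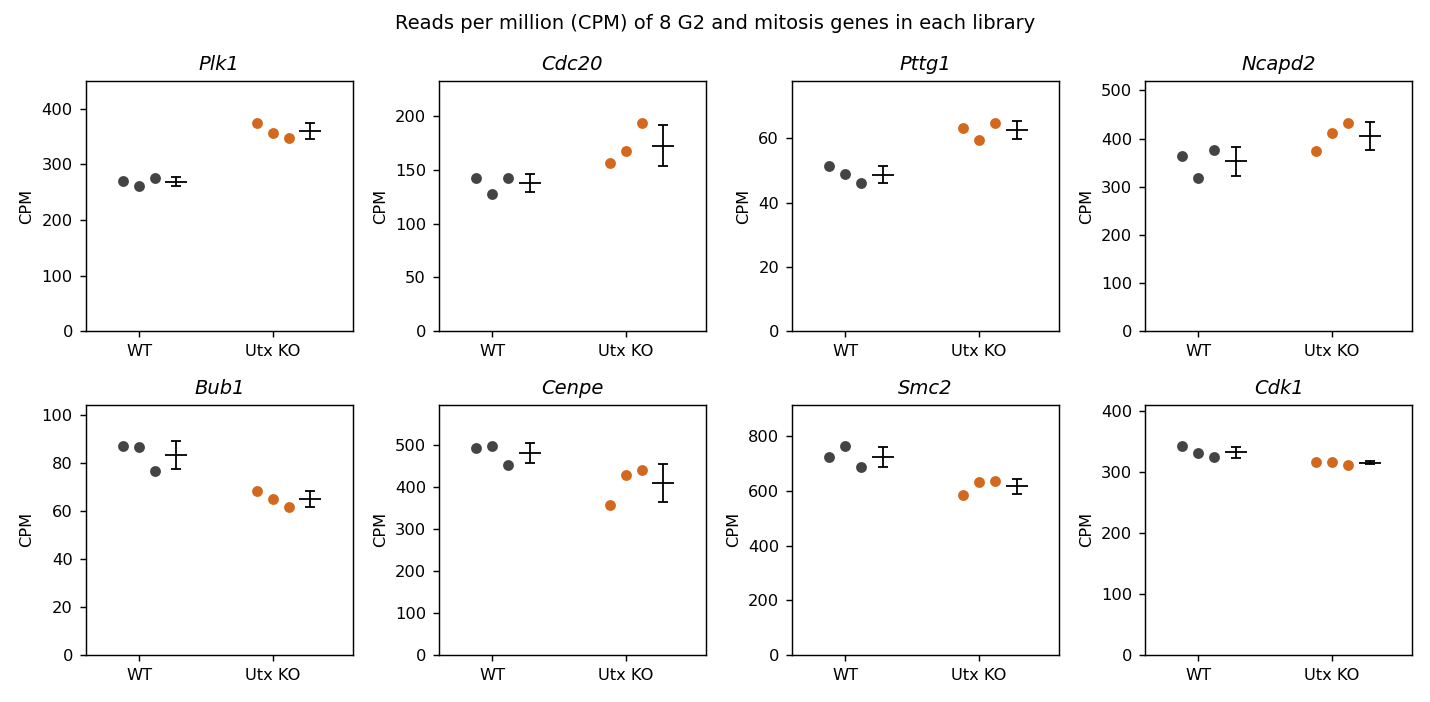
Level (CPM, axes from 0) of 8 G2 and mitosis genes in each of 3 WT (grey) and 3 Utx KO (orange) libraries, with the mean and SD of each group beside the points. The groups stand clear of each other in Plk1, Cdc20 and Pttg1 (higher in Utx KO) and in Bub1, Cenpe, Smc2 and Cdk1 (lower), and overlap in Ncapd2.

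Of the 7 mitotic kinases, 1 was higher, 1 lower and 5 were not called (28.6% called, background 10.8%). Each role holds few genes, so here and below its share of calls is no result about the role. Plk1 (ENSMUSG00000030867), which drives centrosome maturation, spindle assembly and cytokinesis, measured 270.1, 261 and 276 CPM across the 3 WT libraries against 375, 356 and 347 CPM across the 3 Utx KO libraries. All 3 Utx KO libraries were well above all 3 WT libraries, and the means were 269 ± 7.55 CPM (WT) against 359 ± 14.2 CPM (Utx KO; mean ± SD, n = 3 each). The log2 fold change was 0.42 (SE 0.06, 95% interval 0.29 to 0.54, limma adjusted p = 4.68e-05). Plk1 kept its call in all 16 alternative analyses, with adjusted p from 1.31e-05 to 0.000895. The gene spans chr7:122159439-122169873 on the plus strand (GRCm38, GENCODE M21). In its last 300 transcribed bases, 9.76% of 50-base words also occur in another gene, and exons of Gm44985 overlap it on the opposite strand; the counting's treatment of strand is not given in the sources used here.

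Bub1 (ENSMUSG00000027379), the checkpoint kinase that marks unattached kinetochores, moved the other way. It measured 87.0, 86.6 and 76.6 CPM across the 3 WT libraries against 68.3, 65.1 and 61.8 CPM across the 3 Utx KO libraries, with every Utx KO library below every WT library. The means were 83.4 ± 5.90 CPM (WT) against 65.1 ± 3.28 CPM (Utx KO; mean ± SD, n = 3 each), and the log2 fold change was -0.35 (SE 0.11, 95% interval -0.57 to -0.13, limma adjusted p = 0.0323). The call was lost with DESeq2 (adjusted p = 0.218) and without WT library 1 (0.138), WT library 2 (0.140), Utx KO library 2 (0.0764) or Utx KO library 3 (0.101), with log2 fold changes of -0.41 to -0.32 over all 16 alternatives. Bub1 lies at chr2:127801122-127831865 on the minus strand.

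Cdk1, the kinase that starts mitosis, measured 342, 331 and 324 CPM across the 3 WT libraries against 316, 316 and 312 CPM across the 3 Utx KO libraries. The groups did not overlap, but the log2 fold change of -0.08 (95% interval -0.20 to 0.05, limma adjusted p = 0.494) did not pass. Aurkb, the kinase of the chromosomal passenger complex, had 40.7, 32.3 and 39.4 CPM (WT) against 44.9, 39.4 and 35.8 CPM (Utx KO), which overlapped, with a log2 fold change of 0.09 (95% interval -0.21 to 0.40, limma adjusted p = 0.767). The other kinases were Aurka, which acts at the spindle poles, Plk4, which starts centriole duplication, and Ttk, a checkpoint kinase. Their log2 fold changes were 0.15, -0.18 and -0.09, with overlapping groups and adjusted p of 0.467, 0.477 and 0.672.

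None of the 9 cyclins and Cdk1 regulators was called by limma (0%, background 10.8%), edgeR, DESeq2 or limma-voom. An unadjusted limma p under 0.05 was reached by 1 gene (11.1%, against 22.7% of all tested genes). That gene was Ccna2, the cyclin A of S phase and G2, with 151, 134 and 162 CPM (WT) against 166, 167 and 184 CPM (Utx KO), a log2 fold change of 0.21 (95% interval 0.04 to 0.39, limma adjusted p = 0.125). Every Utx KO library was above every WT library for Ccna2, and the same held for Ccnb1, the main mitotic cyclin. Ccnb1 had 133, 144 and 146 CPM (WT) against 149, 152 and 153 CPM (Utx KO), with a log2 fold change of 0.10 (95% interval -0.06 to 0.27, limma adjusted p = 0.503). In its last 300 transcribed bases, 29.6% of 50-base words occur in another gene, so its level is uncertain where reads were split between copies. Cks1b, a small subunit that binds Cdk1, had 226, 221 and 208 CPM (WT) against 209, 214 and 218 CPM (Utx KO), with a log2 fold change of -0.03 (95% interval -0.18 to 0.11, limma adjusted p = 0.847). Over the 9 genes, which also include Ccnb2, Ccnf, Cdc25b, Cdc25c, Cks2 and Cdca3, the median log2 fold change was 0.07 and 7 were above 0.

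Among the 7 checkpoint and anaphase genes, 6 were above 0 and 1 was called (14.3%, background 10.8%). Cdc20 (ENSMUSG00000006398), the activator of the anaphase-promoting complex, measured 142, 128 and 143 CPM across the 3 WT libraries against 156, 168 and 194 CPM across the 3 Utx KO libraries. All Utx KO libraries were above all WT libraries, Utx KO library 3 the furthest. The means were 138 ± 8.36 CPM (WT) against 173 ± 19.4 CPM (Utx KO; mean ± SD, n = 3 each), and the log2 fold change was 0.32 (SE 0.09, 95% interval 0.14 to 0.50, limma adjusted p = 0.0178). The call was lost with DESeq2 (adjusted p = 0.109), without WT library 2 (log2 fold change 0.27, adjusted p = 0.115) and without Utx KO library 3 (0.23, adjusted p = 0.132). Cdc20 lies at chr4:118432901-118437352 on the minus strand, where exons of Elovl1 overlap it on the other strand.

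Pttg1, or securin, the inhibitor of separase that the anaphase-promoting complex destroys, measured 51.4, 48.8 and 46.0 CPM across the 3 WT libraries against 63.2, 59.4 and 64.9 CPM across the 3 Utx KO libraries. The groups did not overlap, and the log2 fold change of 0.35 (95% interval 0.11 to 0.60, limma adjusted p = 0.0561) missed the threshold; with genes under a mean of 10 CPM left out, its adjusted p was 0.0490. Ube2c, the ubiquitin-conjugating enzyme of the same complex, had 339, 322 and 364 CPM (WT) against 382, 375 and 376 CPM (Utx KO), again without overlap, and a log2 fold change of 0.15 (95% interval 0.02 to 0.27, limma adjusted p = 0.150). Mad2l1, the checkpoint protein that holds Cdc20, was the only gene of the 7 below 0. It had 56.1, 50.2 and 56.9 CPM (WT) against 47.3, 56.0 and 50.6 CPM (Utx KO), a log2 fold change of -0.09 (95% interval -0.34 to 0.17, limma adjusted p = 0.748), or -0.03 without Utx KO library 1 (adjusted p = 0.937). Espl1, or separase, which cuts cohesin, had 33.6, 22.6 and 39.4 CPM (WT) against 24.6, 34.3 and 38.9 CPM (Utx KO) and a log2 fold change of 0.04 (95% interval -0.35 to 0.44, limma adjusted p = 0.938); without Utx KO library 1 it was 0.23 (adjusted p = 0.545). The checkpoint genes Bub1b and Bub3 were at 0.08 and 0.09, with adjusted p of 0.737 and 0.570.

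Of 10 kinetochore and passenger genes, 1 was called (10%, background 10.8%), 4 were above 0 and 6 below. Cenpe (ENSMUSG00000045328), the kinetochore motor that carries chromosomes to the middle of the spindle, measured 494, 497 and 453 CPM across the 3 WT libraries against 357, 429.5 and 440.4 CPM across the 3 Utx KO libraries. Utx KO library 1 was the lowest, and libraries 2 and 3 lay just under the lowest WT library. The means were 481 ± 24.4 CPM (WT) against 409 ± 45.3 CPM (Utx KO; mean ± SD, n = 3 each), and the log2 fold change was -0.24 (SE 0.07, 95% interval -0.38 to -0.10, limma adjusted p = 0.0247). Without Utx KO library 1, the library in which long transcripts were low, it was -0.14 (adjusted p = 0.136). The call was also lost without WT library 1 (0.0854) or WT library 2 (0.120). Cenpe lies at chr3:135212537-135273611 on the plus strand.

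Cenpf, a large protein of the outer kinetochore, had 516, 521 and 463 CPM (WT) against 338, 492 and 505 CPM (Utx KO), the first Utx KO library far under the rest. Its log2 fold change of -0.19 (95% interval -0.39 to 0.01, limma adjusted p = 0.250) was -0.0017 without that library (adjusted p = 0.992). Birc5, or survivin, the most abundant gene of the group, had 508, 496 and 471 CPM (WT) against 470.3, 476 and 434 CPM (Utx KO) and a log2 fold change of -0.10 (95% interval -0.21 to 0.02, limma adjusted p = 0.343). Cenpa, the histone H3 variant of centromeres, had 135, 118 and 117 CPM (WT) against 137, 151 and 136 CPM (Utx KO), no overlap, and a log2 fold change of 0.19 (95% interval 0.01 to 0.37, limma adjusted p = 0.186). The NDC80 complex holds microtubules through Ndc80 and Nuf2 and sits on the inner kinetochore through Spc24 and Spc25. Their log2 fold changes were 0.15, -0.06, -0.10 and -0.11, with adjusted p from 0.509 to 0.824. The passenger subunits Incenp and Cdca8 were at 0.03 and 0.02 (adjusted p of 0.869 and 0.929).

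**Figure D3:**
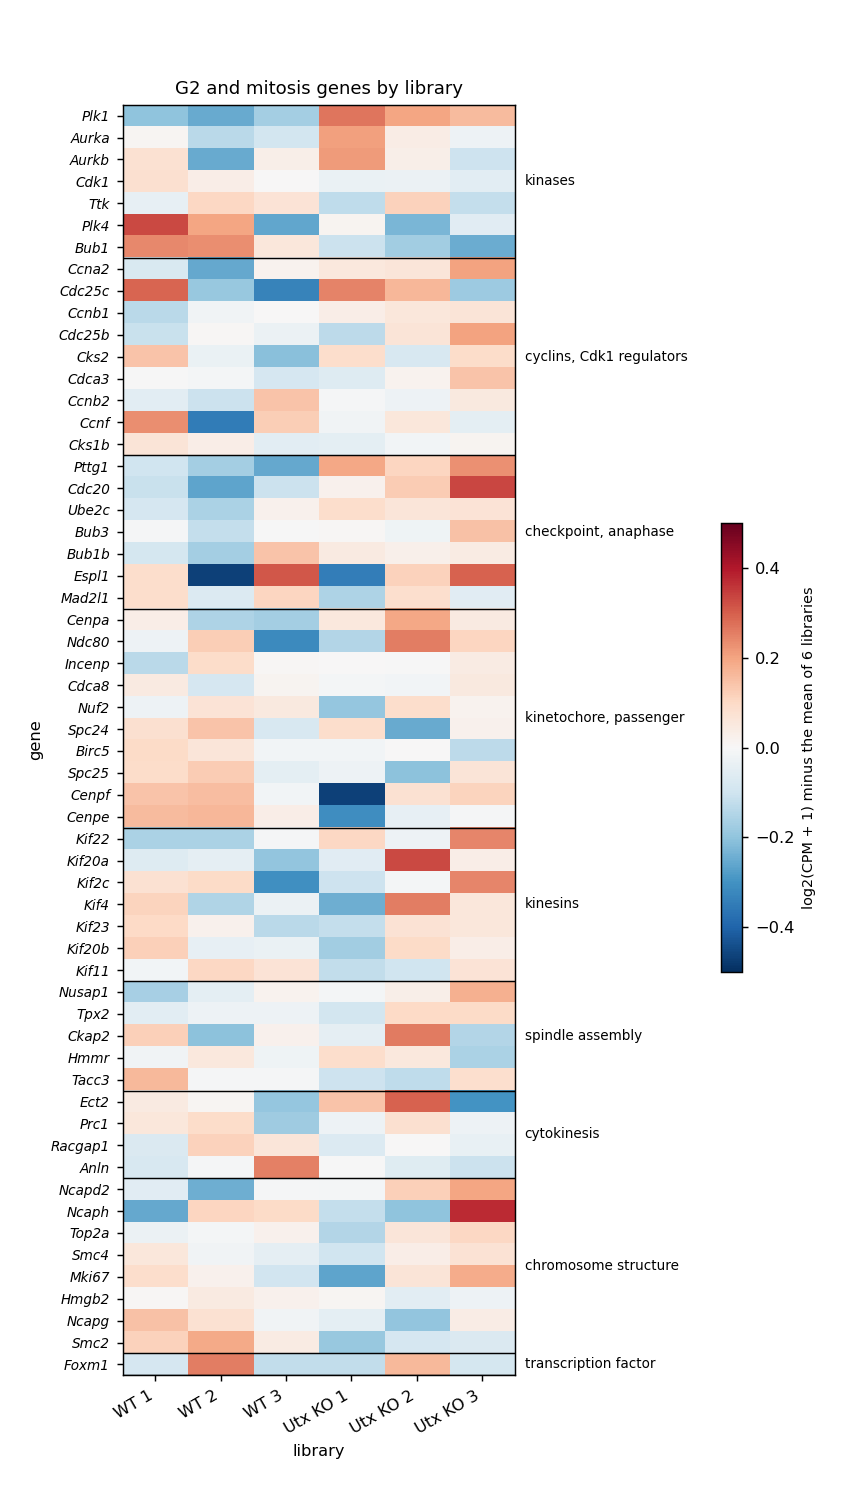
Deviation of each of the 58 G2 and mitosis genes in each library from its mean over the 6 libraries, in log2(CPM + 1), with genes in rows by role and libraries in columns. Plk1, Cdc20 and Pttg1 are above their mean in all Utx KO libraries and Bub1 and Smc2 are below it, and Utx KO library 1 is low for Cenpf, Espl1 and Mki67.

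The 7 kinesins, 5 spindle assembly genes and 4 cytokinesis genes had no called member (0% in each role, background 10.8%). With so few genes this is no result about these roles. edgeR, DESeq2 and limma-voom on the recovered reads also called none of them. Kif22 (14.3% of the kinesins) and Nusap1 (20% of the spindle assembly genes) had an unadjusted limma p under 0.05, against 22.7% of all tested genes. Kif22, a chromosome arm motor, had 96.9, 96.8 and 108 CPM (WT) against 116, 106 and 128 CPM (Utx KO), with a log2 fold change of 0.22 (95% interval 0.02 to 0.41, limma adjusted p = 0.173). Kif11, which pushes the spindle poles apart, had 184, 200.0 and 195 CPM (WT) against 171, 174 and 195 CPM (Utx KO), with a log2 fold change of -0.10 (95% interval -0.26 to 0.05, limma adjusted p = 0.469). Kif20b, the most abundant kinesin here, had 258, 231 and 232 CPM (WT) against 211, 254 and 243 CPM (Utx KO), with a log2 fold change of -0.03 (95% interval -0.19 to 0.13, limma adjusted p = 0.886), or 0.05 without Utx KO library 1 (adjusted p = 0.753). No kinesin had groups without overlap (background 14.0% higher and 12.6% lower), which in 7 genes is no result about them. The remaining ones, Kif20a and Kif23 of the spindle midzone, Kif2c, which depolymerises microtubules, and the chromosome motor Kif4, were at 0.20, 0.01, 0.09 and 0.05, with adjusted p from 0.298 to 0.979.

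Nusap1, which bundles spindle microtubules, had 440.1, 478 and 500.1 CPM (WT) against 491, 504 and 558 CPM (Utx KO). Its groups overlapped in one pair of libraries, and the log2 fold change was 0.13 (95% interval 0.00 to 0.26, limma adjusted p = 0.201); exons of Oip5 overlap it on the opposite strand. Tacc3, which stabilises spindle fibres, had 195, 174 and 173 CPM (WT) against 162, 159 and 185 CPM (Utx KO) and a log2 fold change of -0.10 (95% interval -0.27 to 0.07, limma adjusted p = 0.522). Tpx2, Hmmr and Ckap2, which also act on spindle microtubules, were at 0.07, -0.01 and 0.04.

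Prc1, the crosslinker of the central spindle, had 225, 230.4 and 191 CPM (WT) against 212, 228 and 212 CPM (Utx KO), with a log2 fold change of 0.02 (95% interval -0.14 to 0.18, limma adjusted p = 0.925). Ect2, the exchange factor that switches on RhoA at the cleavage furrow, had 36.4, 35.5 and 30.6 CPM (WT) against 38.9, 43.4 and 28.4 CPM (Utx KO) and 0.09 (95% interval -0.24 to 0.42, limma adjusted p = 0.808). Anln, a scaffold of the contractile ring, had 37.2, 39.2 and 47.1 CPM (WT) against 39.3, 37.7 and 36.4 CPM (Utx KO) and -0.11 (95% interval -0.40 to 0.18, limma adjusted p = 0.706). Racgap1, the partner of Kif23 in the central spindle, was at -0.07. The cytokinesis genes thus overlapped between genotypes in all 4 cases, where 14.0% of all tested genes were higher and 12.6% lower without overlap. Levels under 50 CPM left Ect2 and Anln with the widest intervals of the 4.

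Of the 8 genes of chromosome structure, 1 was called (12.5%, background 10.8%) and 4 lay on each side of 0. Smc2 (ENSMUSG00000028312), the ATPase subunit common to both condensin complexes, measured 724, 763 and 688 CPM across the 3 WT libraries against 586, 631 and 636 CPM across the 3 Utx KO libraries. Every Utx KO library was below every WT library, and the means were 725 ± 37.7 CPM (WT) against 618 ± 27.7 CPM (Utx KO; mean ± SD, n = 3 each). The log2 fold change was -0.23 (SE 0.05, 95% interval -0.34 to -0.12, limma adjusted p = 0.00491). The call held in 15 of 16 alternatives and was lost without WT library 2 (-0.19, adjusted p = 0.0561); without Utx KO library 1 it was -0.19 (adjusted p = 0.0189). Smc2 lies at chr4:52439243-52488260 on the plus strand.

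Smc4, the partner of Smc2, had a log2 fold change of 0.00 (95% interval -0.09 to 0.10, limma adjusted p = 0.972), with overlapping groups. Ncapd2, a subunit of condensin I, was on the other side of 0, with 363, 318 and 376 CPM (WT) against 375, 411 and 433 CPM (Utx KO) and a log2 fold change of 0.20 (95% interval 0.06 to 0.35, limma adjusted p = 0.0580). Ncapd2 passed with genes under a mean of 10 CPM left out (adjusted p = 0.0475), with edgeR (0.0474), without WT library 3 (0.0382) and without Utx KO library 1 (0.0142). Ncapg and Ncaph, the remaining condensin I subunits, were at -0.14 and 0.04 (adjusted p of 0.361 and 0.938). Whether the condensin subunits differ from one another in their change was not tested.

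Top2a, the topoisomerase that untangles sister chromatids, was the most abundant member, with 2841, 2882 and 2939.8 CPM (WT) against 2621, 3019 and 3113 CPM (Utx KO). The Utx KO libraries held both its lowest and its highest values, and the log2 fold change was 0.01 (95% interval -0.08 to 0.11, limma adjusted p = 0.933), or 0.09 without Utx KO library 1 (adjusted p = 0.128). Mki67, the surface coat of mitotic chromosomes and the usual marker of dividing cells, had 836, 796 and 735 CPM (WT) against 655, 821 and 892 CPM (Utx KO), Utx KO library 1 the lowest and library 3 the highest of all 6. Its log2 fold change of -0.01 (95% interval -0.16 to 0.14, limma adjusted p = 0.965) became 0.12 without Utx KO library 1 (adjusted p = 0.194). Hmgb2, a chromatin protein and the second most abundant member, was at -0.05 (95% interval -0.12 to 0.03, limma adjusted p = 0.481), and 49.6% of the 50-base words of its last 300 bases occur in another gene.

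Foxm1, the forkhead factor that works with the CHR-binding complex at G2 promoters, had 49.0, 62.2 and 47.6 CPM (WT) against 47.7, 58.3 and 48.8 CPM (Utx KO). The values overlapped throughout, and the log2 fold change was -0.03 (95% interval -0.31 to 0.24, limma adjusted p = 0.931). limma, edgeR, DESeq2 and limma-voom did not call it.

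**Figure D4:**
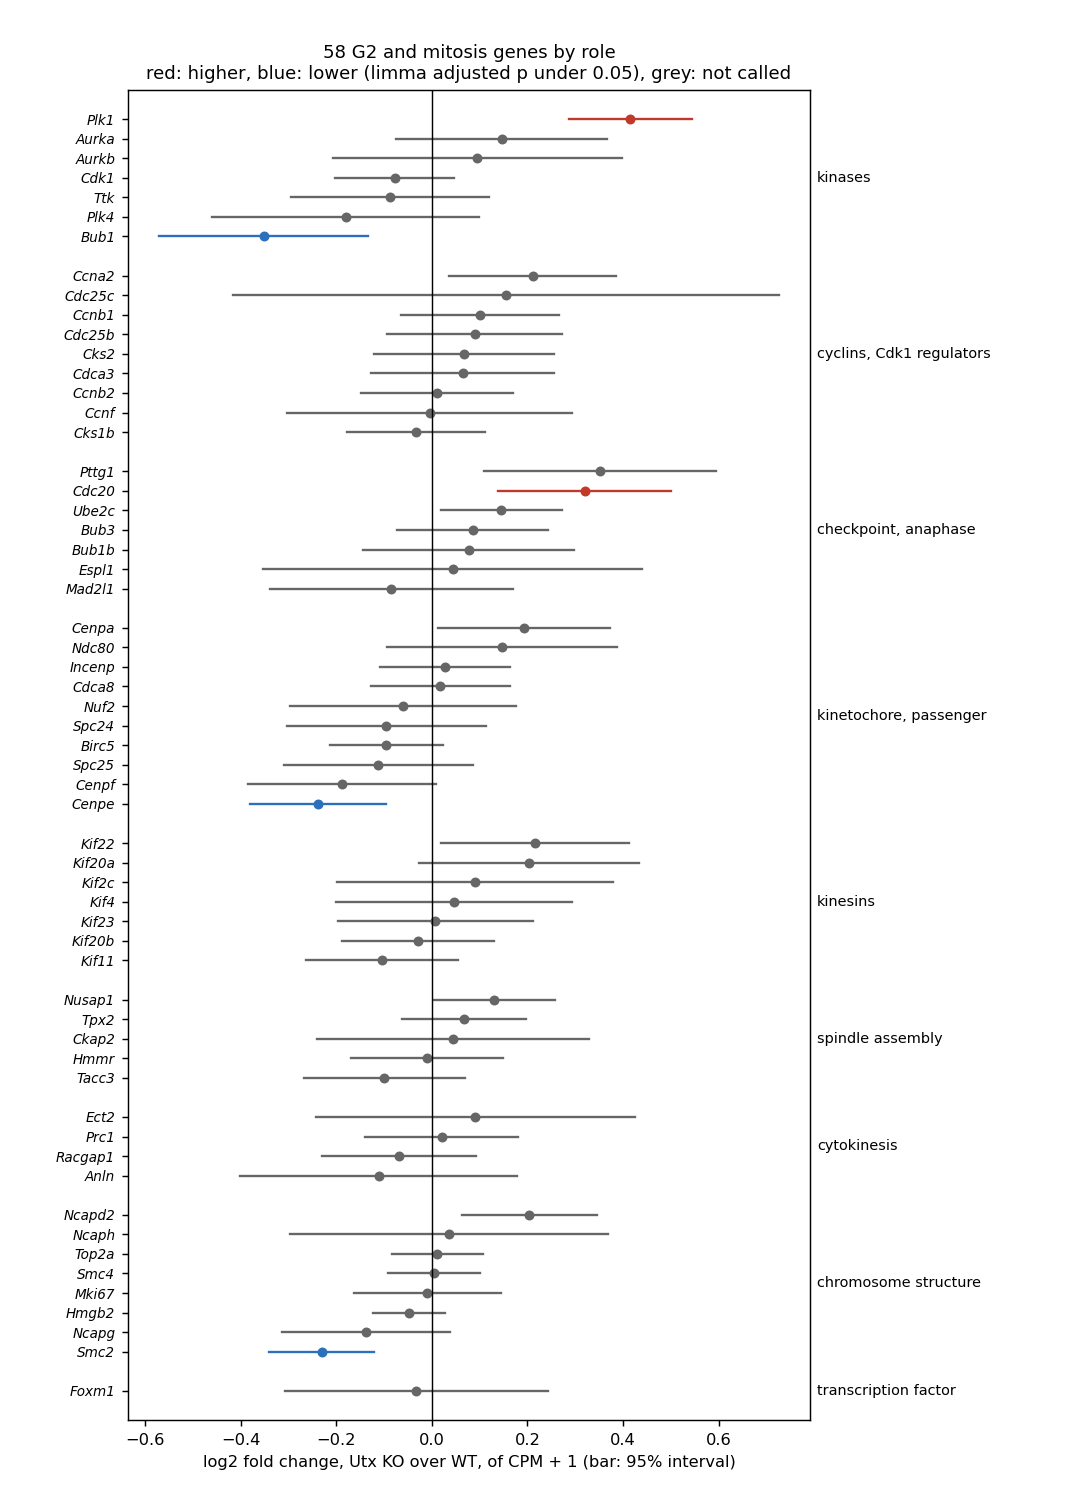
Log2 fold change of CPM + 1, Utx KO over WT, with its 95% interval from limma, for the 58 G2 and mitosis genes ordered by role. The 5 called genes are coloured (Plk1 and Cdc20 at 0.42 and 0.32, Smc2, Cenpe and Bub1 at -0.23, -0.24 and -0.35), and the points of the others lie between -0.19 and 0.35.

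Other genes of the same pathways, 195 in 8 lists that leave out the members, gave 193 tested genes, of which 1 was higher and 6 were lower (3.63%, background 10.8%). Their median log2 fold change was -0.02, with 91 above and 102 below 0. Groups did not overlap in 13 that were higher (6.74%, background 14.0%) and 21 that were lower (10.9%, background 12.6%). The lists of G2 entry regulators (15 tested), checkpoint and kinetochore genes (39) and centrosome genes (14) had no limma call. An unadjusted limma p under 0.05 was reached by 1, 3 and 3 of their genes (6.67%, 7.69% and 21.4%). Over all tested genes that share was 22.7%, so these counts are no result about the lists. The checkpoint and kinetochore list was the lowest, with a median of -0.11.

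The transcription list held both directions. E2f2, an E2F factor that activates S and G2 genes, had 141, 144 and 127 CPM (WT) against 178, 159.9 and 169 CPM (Utx KO) and a log2 fold change of 0.29 (95% interval 0.13 to 0.46, limma adjusted p = 0.0200). That call was lost with DESeq2 (0.134), without WT library 3 (0.112), without Utx KO library 1 (0.0641) and without Utx KO library 3 (0.0501). E2f3, an activator of the same family, was lower, with 48.6, 51.1 and 42.1 CPM (WT) against 36.1, 30.8 and 33.4 CPM (Utx KO) and a log2 fold change of -0.49 (95% interval -0.78 to -0.20, limma adjusted p = 0.0247). It was not called with DESeq2 (0.196) or without WT library 1 (0.0954), WT library 2 (0.136), Utx KO library 2 (0.0949) or Utx KO library 3 (0.0505). The groups of both genes stood apart, in opposite directions.

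Anapc11, the RING subunit of the anaphase-promoting complex, had 206, 192 and 198 CPM (WT) against 165, 159 and 166 CPM (Utx KO), a log2 fold change of -0.28 (95% interval -0.43 to -0.13, limma adjusted p = 0.0128). Its call was lost with DESeq2 (0.0727) and without WT library 1 (0.0822) or Utx KO library 2 (0.0527). It was the only called gene of the 18 in the list of that complex, and its direction was opposite to that of Cdc20. Of 45 further kinesin and spindle genes, Kif5b and Kif1b were lower. Both are known as cargo motors of the interphase cell. Kif5b had a log2 fold change of -0.27 (95% interval -0.42 to -0.12, limma adjusted p = 0.0167), lost without WT library 1 (0.144), WT library 2 (0.0852), Utx KO library 2 (0.0607) or Utx KO library 3 (0.0727). Kif1b was at -0.55 (95% interval -0.88 to -0.21, limma adjusted p = 0.0296), lost with DESeq2 (0.248) and without WT library 1 (0.0964), WT library 2 (0.108), WT library 3 (0.0630) or Utx KO library 2 (0.108).

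Myh9, the heavy chain of non-muscle myosin and the called gene of 19 in the cytokinesis list, had 582, 627 and 640.1 CPM (WT) against 450.4, 590.0 and 511 CPM (Utx KO), a log2 fold change of -0.26 (95% interval -0.40 to -0.11, limma adjusted p = 0.0162). Without Utx KO library 1 it was -0.16 (0.0963), and the call was also lost without WT library 2 (0.0753) or WT library 3 (0.0770). Hmgn2, a nucleosome-binding protein and the called gene of 20 in the list of condensin, cohesin and related chromatin genes, had 308, 291 and 340.3 CPM (WT) against 281, 279.9 and 210.0 CPM (Utx KO), a log2 fold change of -0.29 (95% interval -0.48 to -0.11, limma adjusted p = 0.0328). Utx KO library 3 was the lowest, and without it the value was -0.15 (0.255). The call was also lost with a pseudocount of 0.1 (0.0554), quantile normalization (0.0607) and DESeq2 (0.101), and without WT library 1 (0.0537) or WT library 3 (0.169).

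Genes of the preceding phases were read from the same fit to place the members. In 60 S-phase genes, which copy the DNA and supply its building blocks, all 5 calls (8.33%, background 10.8%) were lower in Utx KO, and 17 genes were above 0 and 43 below. Their median log2 fold change was -0.11, against 0.02 in the G2 and mitosis genes. Groups did not overlap in 19 S-phase genes that were lower (31.7%, background 12.6%) and 1 that was higher (1.67%, background 14.0%), against 4 and 7 among the 58. S-phase genes summed to 8475 to 8686 CPM in WT and to 7829 to 8130.0 CPM in Utx KO, without overlap. The sums of the G2 and mitosis genes overlapped, but only through Utx KO library 1. The difference between the 2 lists was not tested.

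The S-phase genes with the lowest adjusted p were Clspn, the adaptor of the replication checkpoint, Pcna, the clamp of DNA polymerase, and Rfc2, a subunit of the clamp loader. Clspn had 210.0, 205 and 188 CPM (WT) against 145, 153 and 153 CPM (Utx KO), a log2 fold change of -0.41 (95% interval -0.57 to -0.26, limma adjusted p = 0.000552). Pcna was at 342, 335 and 345 CPM (WT) against 292, 294 and 257 CPM (Utx KO), with -0.28 (95% interval -0.42 to -0.15, limma adjusted p = 0.00529). Both kept their calls in all 16 alternatives. Rfc2 was at -0.33 (95% interval -0.54 to -0.13, limma adjusted p = 0.0312), lost with DESeq2 (0.201) and without WT library 2 (0.208), WT library 3 (0.0609), Utx KO library 2 (0.0922) or Utx KO library 3 (0.103).

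Of 16 tested G1 regulators, 3 were higher and 2 lower in Utx KO (31.2%, background 10.8%), with a median of -0.07. The median level of the list was 75.3 CPM, against 24.2 CPM over all tested genes, and 7 of the 16 had a mean of at least 100 CPM. At that level 23.0% of tested genes were called. With so few genes the share is no result about the list. Cdk6, a G1 kinase that pairs with D cyclins, fell from 854, 858 and 802 CPM in WT to 594, 690.0 and 669 CPM in Utx KO, a log2 fold change of -0.37 (95% interval -0.48 to -0.25, limma adjusted p = 5.05e-05). Cdkn1b, or p27, an inhibitor of cyclin-dependent kinases, was higher, at 102, 101 and 125 CPM (WT) against 139, 151 and 145 CPM (Utx KO), with 0.41 (95% interval 0.22 to 0.60, limma adjusted p = 0.00428). Mxd4, a repressor that competes with Myc for Max, was at 0.62 (95% interval 0.32 to 0.92, limma adjusted p = 0.00562), and that call was lost with DESeq2 (0.0817). Cdk6 and Cdkn1b kept their calls in all 16 alternatives, as Plk1 did among the G2 and mitosis genes.

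**Figure D5:**
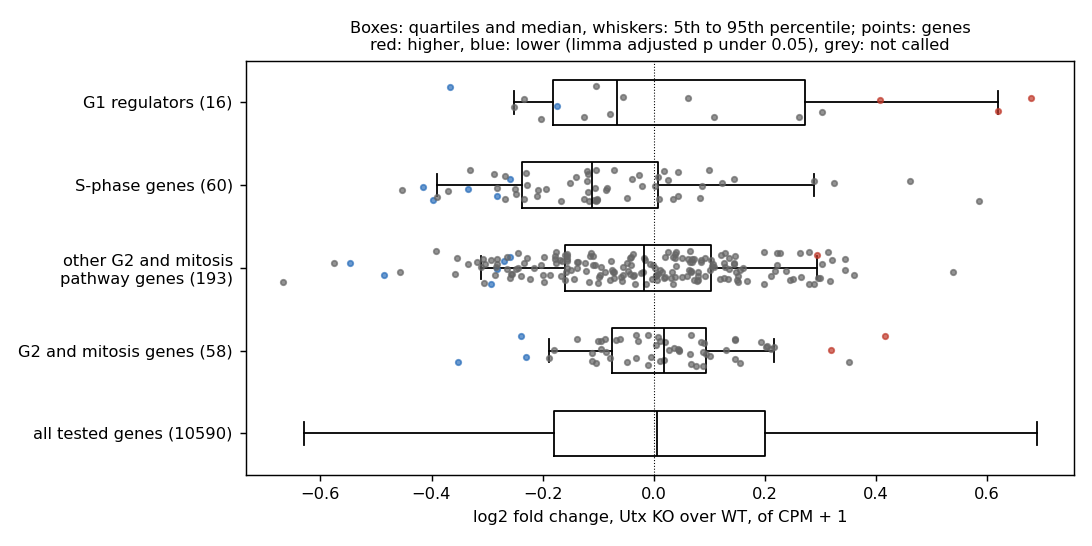
Log2 fold change of CPM + 1, Utx KO over WT, per gene (points) in 4 gene lists and over all tested genes, with boxes for quartiles and median and whiskers from the 5th to the 95th percentile. The box of the 58 G2 and mitosis genes is narrow and centred near 0 (median 0.02), and that of the 60 S-phase genes is centred at -0.11.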

How the data were processed

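Each of the 6 libraries was a QuantSeq 3′ mRNA library from 500 ng of total RNA, per the labels' protocols. For every library the authors deposited a file of CPM values over 25655 Ensembl genes, per the file headers, which sum to the same total in each. GRCm38 and mm10 are the builds in the submitters' processing notes. Not given in the sources used here were the aligner, the counter, how strand and multiply matching reads were handled, and filters. A 3′ library gives about 1 tag per transcript, so length does not scale the values, but a shift between transcript ends may. Dividing by the value of 1 read gave whole reads for 100% of values (tolerance 0.001).

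Symbols came from the supplied name table (25600 of 25655 identifiers, 55 without), positions and exon overlaps from GENCODE M21 on GRCm38, and promoters from RefSeq. Genes that reached 1 CPM in 3 or more libraries were tested with limma 3.58.1 (R 4.3.3; trend in the prior variance) on log2(CPM + 1), fitted by genotype alone, two-sided, with Benjamini-Hochberg adjustment and a threshold of 0.05. Fold changes on this scale understate those of low genes. Intervals are 95% intervals of the same fit. Alternatives used edgeR 4.0.16, DESeq2 1.42.0 and limma-voom on the recovered reads, other pseudocounts, filters and scalings, a replicate block, and each library left out in turn, 16 in all. The fits were tested on simulated counts, with changed genes drawn from those with a mean of at least 30 CPM. limma called 26% of the 1.25-fold changes, 82% of the 1.5-fold and 100% of the 2-fold changes. All genes shared a single dispersion of 0.0033 and no library differed by transcript length, so recovery in the real data may differ.

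The members and lists were chosen with earlier results of these data known. Genes are named by this rule: every called member, Cdk1, Ccnb1, Plk1, Aurkb, Top2a, Mki67 and Foxm1, the highest, most raised and most lowered member of each role, every called pathway gene, and the 3 lowest adjusted p of the S-phase and G1 lists. Kdm6a, Cenpf and Espl1, and other members given by their fold change, were chosen after their values were seen. Replicates of a group differed by more than sampling noise, and no 2 libraries were identical. Of 9 CD8 T, 3 CD4 T, 6 B cell, 6 macrophage, 4 NK, 4 dendritic, 4 neutrophil and 5 erythroid markers read, those of neutrophils were at 0 throughout; the CD4 T list summed to 6.79 to 10.4 CPM, NK to 0.571 to 2.37 CPM, dendritic to 5.07 to 10.7 CPM in WT and 1.99 to 5.14 CPM in Utx KO, and erythroid to 0 to 0.461 CPM and 2.28 to 3.09 CPM.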

Additional observations from a re-analysis of the deposited data

How the results depend on the processing

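DESeq2 on the recovered reads called 551 genes (4.09% of 13464), against 1142 (10.8% of 10590) with limma. Of those 13464 genes, 2873 got no adjusted p from DESeq2 and could not be called, so the share among the rest was above 4.09%. edgeR called 1106 and limma-voom 1108 (12.5% of 8832 for both). Of the G2 and mitosis genes, 2 were called higher and 3 lower with limma, and 1 higher and 2 lower with DESeq2 (Plk1, Cenpe and Smc2). Leaving out genes under a mean of 10 CPM gave 4 higher (Ncapd2 and Pttg1 were added). In that setting 13.2% of all tested genes were called. Leaving out 1 library at a time gave 754 to 1042 called genes (7.12% to 9.84% of tested genes), 1 to 3 members higher and 0 to 3 lower. Without WT replicate 2, where the share was 7.12%, Plk1 was the only member called. In that fit 6 members had an unadjusted limma p under 0.05, against 12 with all libraries. Of the other pathway genes, 7 were called, against 2 with DESeq2 and 2 to 5 with 1 library left out. The median log2 fold change of the members moved from 0.02 to between -0.01 and 0.05 over the alternatives. The cause of these losses was not tested, though a library less leaves fewer samples.

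Among the 43 genes recomputed one by one, the direction reversed in 8, none of them called, with log2 fold changes near 0. Quantile normalization gave 0.0036 for Kif20b, 0.051 for Mki67 and -0.042 for Top2a, and limma-voom gave -0.0016 for Top2a. Leaving out 1 library at a time gave a range of -0.0064 to 0.17 for Aurkb, -0.034 to 0.26 for Ect2, -0.18 to 0.23 for Espl1, -0.12 to 0.087 for Foxm1, -0.084 to 0.051 for Kif20b, -0.10 to 0.12 for Mki67, -0.063 to 0.072 for Prc1 and -0.038 to 0.087 for Top2a.

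Residuals of same-numbered WT and Utx KO libraries correlated at 0.00602, -0.00272 and -0.00963, and those of differently numbered ones at -0.0217 to 0.0227. With 3 libraries per group these values cannot show whether same-numbered samples were prepared together, and the labels do not say. With a replicate block, 1065 genes (10.1%) were called, among them 2 members higher, 3 members lower and 7 other pathway genes. The median of the members was 0.02. At 1619085 to 2529113 reads per library, the lowest member, Cdc25c, rests on 12 to 27 reads per library.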
